A study of Mus musculus with 4 samples.

Results

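Dendritic cells are the antigen-presenting leukocytes that take up material in a tissue, load peptides from it onto MHC class II molecules and, after they mature, carry it to T cells. In the 4 ovarian libraries of the series they were taken as the barcodes with at least 500 genes, over 1000 UMIs (unique molecular identifiers, each marking 1 captured RNA molecule) and under 10% mitochondrial UMIs that also met every part of the following gate. The cell had at least 10 UMIs of H2-Aa, H2-Ab1, H2-Eb1 and Cd74 together and at least 1 UMI of Flt3, Xcr1, Clec9a, Cd209a or Ccr7. It had under 3 UMIs of C1qa, C1qb and C1qc together, 0 UMIs of Cd79a, Cd79b and Ms4a1, and under 10 UMIs of Inhba and Amh per 10000 UMIs. The gate found 382 cells of 47782 filtered barcodes and 57109 barcodes in all. Fosl2F/F 1 and 2 gave 59 and 170 of them, and the libraries labelled Fosl2cKO gave 86 and 67. These counts of marker UMIs chose the cells, so the levels of the gating genes are given as a description.

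The libraries came from whole ovaries of 8-week-old female mice of 1 litter, and were made with a 10x Genomics 3′ kit. There were 2 Fosl2F/F libraries, from mice whose Fosl2 alleles carry LoxP sites and for which no Cre is named, and 2 Fosl2cKO libraries (Cyp19a1-Cre; Fosl2flox/flox). Both groups carry the floxed alleles, and estrus was read from vaginal smears. Fosl2 encodes an AP-1 transcription factor, and Cyp19a1-Cre is meant to delete it in granulosa cells (GCs), the steroid-producing cells around the oocyte, so dendritic cells were not its intended target. The study's description gives as many females per group as there are libraries, but no label ties a library to an animal, and p-values below measure only the spread between these libraries. Where 4 values follow each other below, they are those of Fosl2F/F 1, Fosl2F/F 2, Fosl2cKO 1 and Fosl2cKO 2.

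As background, conventional dendritic cells depend on the receptor Flt3 and fall into 2 main types. Type 1 cells (cDC1) carry Xcr1 and Clec9a, depend on Irf8 and Batf3, and present material from dead cells to CD8 T cells. Type 2 cells (cDC2) carry Cd209a, Clec10a and Sirpa, depend on Irf4 and Zeb2, and mainly present to CD4 T cells. Either type can mature, gain Ccr7 and migrate along lymph vessels to a lymph node. Plasmacytoid dendritic cells carry Siglech and Ly6d and depend on Tcf4. In the ovary such leukocytes lie in the stroma, around follicles and in corpora lutea, beside a larger number of macrophages.

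The targeted gene was counted first. In GC-gate cells (Inhba and Amh at 10 or more UMIs per 10000, 797 to 3321 cells per library), Fosl2 stood at 176, 179.8, 197 and 106 CPM (UMIs of the gene per 1000000 UMIs of the summed cells). The 1st library labelled Fosl2cKO was thus above both Fosl2F/F libraries, and the matrices, with 1 count per gene, do not separate the exons between the LoxP sites from the rest. In the dendritic cells Fosl2 stood at 147, 237, 227 and 182 CPM, a log2 fold change between conditions of 0.09 with a standard error of 0.32. Cyp19a1, whose promoter drives Cre, had 7.25, 4.93, 0 and 2.87 CPM in dendritic cells, where 3 UMIs amount to 3.33 to 5.44 CPM, against 68.8 to 329 CPM in GC-gate cells.

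The dendritic cells held 551711, 811513, 901988 and 697934 UMIs. Their median depth was 8456, 3189, 9620 and 8624 UMIs per cell, so the 2nd Fosl2F/F library was the shallowest, as it was over all filtered cells (3970 against 11380 to 12885 UMIs). In that library 30% of dendritic cells had a high doublet score by Scrublet, against 3.49% to 6.78% in the other 3. The number of cells marked high was set by library size, and over all filtered cells it came to 19.5% in that library and 5.74% to 7.03% in the others. No dendritic cell barcode was shared between libraries. Over all filtered cells, pairs of libraries shared 12 to 49 barcodes.

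The label was checked against markers. Flt3, the receptor for the growth factor of dendritic cells, was detected in 51.2% of them (mean of 4 libraries) and in 0.285% of macrophage-gate cells, the 968 filtered cells with at least 10 UMIs of C1qa, C1qb and C1qc together and the same limits on the B cell and granulosa genes. Thinned to 2000 UMIs per cell, those shares were 22.6% and 0.225%. Cd209a was detected in 51.4% against 1.0%, Clec9a in 31.8% against 2.12%, Ccr7 in 24.4% against 0.271% and Xcr1 in 19.3% against 0%. Thinned, these stood at 33.2%, 18.3%, 17.1% and 12.4%, with 0.691% or less in macrophage-gate cells, whose median depth before thinning was 9946.5, 3340.5, 11506 and 9204 UMIs. These genes were part of the gate, so the shares describe it. Of the 9 genes outside it on the list common to dendritic cells, 8 had a higher mean than in macrophage-gate cells and 4 (Zbtb46, Dpp4, Kmo and Ciita) were higher in all 4 libraries, where 25.6% of the 6400 genes with a mean of at least 20 CPM in dendritic cells were. The exception in the mean was Csf2ra, a receptor subunit for GM-CSF, at 94.99 against 118 CPM. Zbtb46, a transcription factor of conventional dendritic cells, stood at 134.1, 113, 136 and 163 CPM against 5.74, 24.5, 16.1 and 25.6 CPM in macrophage-gate cells. Dpp4, a cell-surface peptidase, stood at 124 ± 30.6 CPM (SD, n = 4 libraries) against 3.62 CPM, and Kmo, an enzyme of tryptophan breakdown, at 58.5 ± 19.9 against 1.07 CPM. T cell list genes summed to 0 to 17.3 CPM, NK cell genes to 2.46 to 5.73 CPM and neutrophil genes to 0 to 4.30 CPM, and none of 5 mast cell genes had a UMI in any dendritic cell. Other lists were not near 0. The monocyte list summed to 667, 419, 1045 and 754 CPM, above the 401, 403, 331 and 339 CPM of macrophage-gate cells, with Plac8 at 437 against 56.0 CPM and Ccr2 at 205 against 105 CPM. Of its 7 genes, 3 were above macrophage-gate cells in all 4 libraries and 4 below in all 4, among them F13a1 at 4.12 against 71.2 CPM. The B cell list outside the gate summed to 114, 55.5, 125 and 100.3 CPM, nearly all of it Ighm, and the epithelial list to 353, 70.2, 131 and 441 CPM.

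The edges of the gate were not equally sharp. The 13 members with 10 to 14 UMIs of the class II genes had 37.5 CPM of Wdfy4, a gene of cross-presentation outside the gate, and 458 CPM of Cst3. The 10 cells just outside, with 5 to 9 such UMIs, had 17.6 and 632 CPM, while all members together had 584 and 6604 CPM, so on these genes the weakest members were closer to the cells left out than to the other members. At the C1q edge, the 41 members with 1 or 2 C1q UMIs had 338 CPM of Wdfy4, and the 6 cells just outside with 3 to 5 had 88.8 CPM. A further 569 cells met every other part of the gate but had none of the 5 markers, and their Wdfy4 stood at 20.9 CPM. At the B cell edge, the 31 cells left out for 1 or 2 UMIs of Cd79a, Cd79b and Ms4a1 had 375 CPM of Wdfy4 and 3593 CPM of Cst3, below those of all members together, with 375 CPM of Ighm, against 96.5 CPM in members. At the granulosa edge, the 8 members with 5 to under 10 UMIs of Inhba and Amh per 10000 had 318 CPM of Wdfy4, and the 4 cells outside with 10 to 20 had 75.03 CPM.

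The class II genes show what the gate stands on and where the members go beyond it. Their proximal promoters are known to share a CCAAT box, bound by NF-Y, below an X box, bound by the RFX complex, through which the coactivator Ciita acts. The letters ATTGG (an inverted CCAAT) and, upstream of them, GNAAC were searched in the 250 bases before the start site in the RefSeq promoters of GRCm38.p6. Of the 15 genes of the class II presentation list, 12 had a promoter in the table. H2-Ab1, Cd74 and Ciita were not matched. The promoters shown are those found to hold GNAAC upstream of ATTGG, with that of H2-DMb2, which holds ATTGG alone, beside its near copy H2-DMb1. The genes other than the gating H2-Aa and H2-Eb1 were all higher in dendritic than in macrophage-gate cells in each library. So was H2-DMa, which has a promoter with ATTGG for which no result on the pair was kept by gene. Each lies in the MHC on chromosome 17, upstream of the transcribed part of its gene. Each run is 55 bases, 5′ to 3′ on the strand of the gene, with GNAAC and ATTGG in capitals.
H2-Aa (chr17:34287857-34287911, minus strand): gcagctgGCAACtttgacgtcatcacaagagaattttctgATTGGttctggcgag
H2-Eb1 (chr17:34305768-34305822, plus strand): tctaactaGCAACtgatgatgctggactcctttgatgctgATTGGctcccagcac
H2-DMb1 (chr17:34153090-34153144, plus strand): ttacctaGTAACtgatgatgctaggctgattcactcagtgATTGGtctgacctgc
H2-DMb2 (chr17:34145119-34145173, plus strand): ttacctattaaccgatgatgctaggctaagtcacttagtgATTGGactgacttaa
H2-Oa (chr17:34092296-34092350, plus strand): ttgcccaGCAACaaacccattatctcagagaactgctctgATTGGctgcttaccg
H2-Ob (chr17:34238808-34238862, plus strand): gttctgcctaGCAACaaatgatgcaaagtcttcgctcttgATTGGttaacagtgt
H2-Eb2 (chr17:34325535-34325589, plus strand): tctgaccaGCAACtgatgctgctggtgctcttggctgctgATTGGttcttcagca

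Of these promoters, 6 held GNAAC followed by ATTGG with 25 to 28 bases between them, and H2-DMb2 held ATTGG without GNAAC. Among 32851 promoters of the table, 104 (0.317%) held that pair on the strand of the gene and 193 (0.588%) on either strand. The range of the gap was set from these same genes, so the share describes how rare the arrangement is and tests nothing. ATTGG alone was in 19.7% of promoters on the strand of the gene and in 33.8% on either. Of the other 5 matched genes, Ctss, Ifi30 and Cst3 held no ATTGG on the strand of the gene in these windows. Lgmn and H2-DMa held it in a promoter that entered the count of the pair over all promoters, but for which no result by gene was kept. A match is a description of letters and shows no binding.

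The classical class II genes were part of the gate and stood high, as it requires. H2-Aa, a chain of the peptide-binding molecule, stood at 12494, 4913, 7632 and 9902 CPM, and Cd74, the invariant chain that guards its groove, at 21417, 10017, 13020.1 and 14953 CPM. The 4 gating genes made up 2.29% to 5.35% of dendritic UMIs, against 1.17% to 2.20% in macrophage-gate cells, for which no class II gene was used. Members of the presentation list that the gate did not use followed: 9 of 11 were above macrophage-gate cells in all 4 libraries and 2 below in all 4, where 25.6% of the 6400 genes with a mean of at least 20 CPM in dendritic cells were above and 18.5% below.

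The widest differences lay in the non-classical genes. H2-Oa, a chain of the DO molecule that restrains peptide exchange, stood at 189, 93.7, 146 and 143 CPM, with 0.957, 1.44, 0.644 and 0 CPM in macrophage-gate cells. H2-Ob, its partner chain, stood at 96.1, 54.2, 87.6 and 129 against 5.74, 1.80, 0.966 and 2.28 CPM. Both chains lay at or under 5.74 CPM in every macrophage-gate library, where 3 UMIs amount to 0.966 to 2.87 CPM, and at 54.2 CPM or more in every dendritic library. H2-DMb2, a chain of the DM molecule that loads peptide, stood at 161 ± 107 against 6.95 CPM (SD over 4 libraries), where its near copy H2-DMb1 differed less, at 507 against 226 CPM. Reads of these near copies may be split between them by the authors' counting. Ciita itself stood at 105 against 33.1 CPM, with 150.4, 44.4, 76.5 and 150.4 CPM by library.

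The lysosomal members of the list parted. Ctss, the protease that cuts the invariant chain, was lower in dendritic cells in each library (1091, 399, 665 and 656 against 2391, 1277, 4247 and 2923 CPM). Lgmn, the protease that starts the same cut, was at 149.6 against 1320.0 CPM. Cst3, cystatin C, an inhibitor of such proteases, went the other way, with 7034, 4936, 7098 and 7567 against 1319.9, 1167, 1232 and 1448 CPM. Levels of different genes are not set against each other here, since UMI counts were not taken per length.

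**Figure D1:**
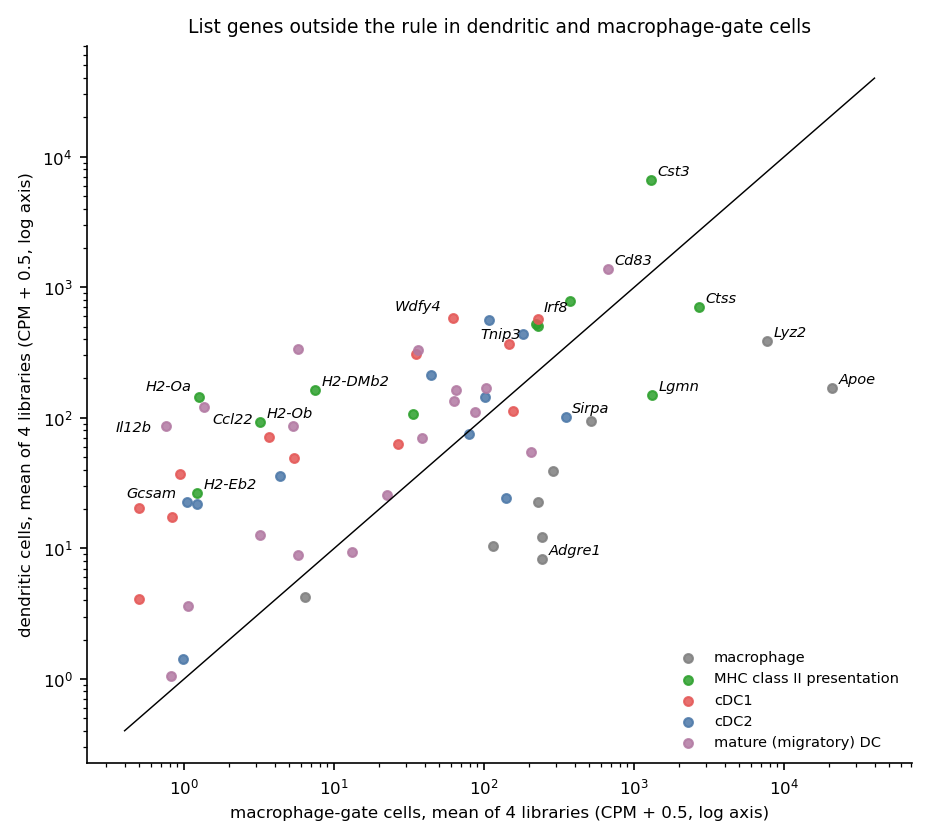
Mean CPM over 4 libraries in dendritic cells (y) against macrophage-gate cells (x), both on log axes after adding 0.5, for genes of 5 lists that the gate did not use, with the line of equality. Class II, cDC1 and mature genes mostly sit above the line, with H2-Oa at 143 against 0.761 CPM, and macrophage genes below it, with Lyz2 at 386 against 7728 CPM.

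The macrophage list was low throughout. None of its 9 genes outside the gate was higher in dendritic cells, and 8 were lower in all 4 libraries. Apoe, a lipid carrier, stood at 67.1, 238, 104 and 259 CPM, against 25064, 18577, 19469 and 20611 CPM in macrophage-gate cells. Lyz2, lysozyme, stood at 386 against 7728 CPM and Adgre1, which encodes F4/80, at 7.72 against 244 CPM. Of 13 genes of lipid handling and of the uptake of dead cells (efferocytosis), 10 were lower in all 4 libraries, among them Trem2 at 3.50 against 643 CPM. Only Timd4, a receptor for phosphatidylserine on dying cells, had a higher mean, at 77.9, 49.3, 49.9 and 20.1 CPM against 0.536 CPM. Within dendritic cells Timd4 was highest in cells of the Ccr7 gate defined next (211 CPM).

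Against all other filtered cells of the ovary, the 25 genes with the highest ratio of CPM included 5 gating genes and 4 genes of antigen presentation that the gate did not use (H2-Oa, H2-DMb2, H2-Ob and Wdfy4). Il12b, a subunit of interleukin 12, had a ratio of 689.9, and the chemokines Ccl22 and Ccl17 had ratios of 792 and 360.3. Htr7, a serotonin receptor, Kynu, an enzyme of tryptophan breakdown, and Btla, an inhibitory receptor, had ratios of 349.9, 260.0 and 169.6. Hepacam2 (528), Dcstamp (229), Napsa (209), Pkib (208) and Rnase6 (171) were also among them. These ratios describe cells chosen by some of the same genes.

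The members were divided by their markers. The Xcr1/Clec9a gate took every member with a UMI of either gene and held 129 cells (10, 50, 41 and 28 by library). The Cd209a gate took the rest with a Cd209a UMI and held 182 cells (34, 87, 30 and 31), the Ccr7 gate the rest with a Ccr7 UMI (40 cells), and 31 cells had Flt3 alone. Of the 382 cells, 194 had 1 of the 5 markers, 115 had 2 and 73 had 3 or more. Cd209a and Ccr7 were found together in 38 cells and a cDC1 marker with Ccr7 in 13, and none of these cells entered the Ccr7 gate. A cDC1 marker was found with Cd209a in 13 cells, of which 3 had a high doublet score.

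Genes that did not define these gates separated the same cells. Over the 12 cDC1 genes other than Xcr1 and Clec9a and the 11 cDC2 genes other than Cd209a, 108 of the 129 cells of the Xcr1/Clec9a gate had more cDC1 than cDC2 UMIs. In the Cd209a gate, 163 of 182 cells had more cDC2 UMIs. Of the Ccr7 gate, 31 of 40 cells had more cDC2 UMIs, and the Flt3 cells were split, 14 with more cDC1 and 16 with more cDC2 UMIs. The median cell of the Xcr1/Clec9a gate had 46.0 cDC1 and 1.62 cDC2 UMIs per 10000, and that of the Cd209a gate had 4.51 and 23.8.

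**Figure D2:**
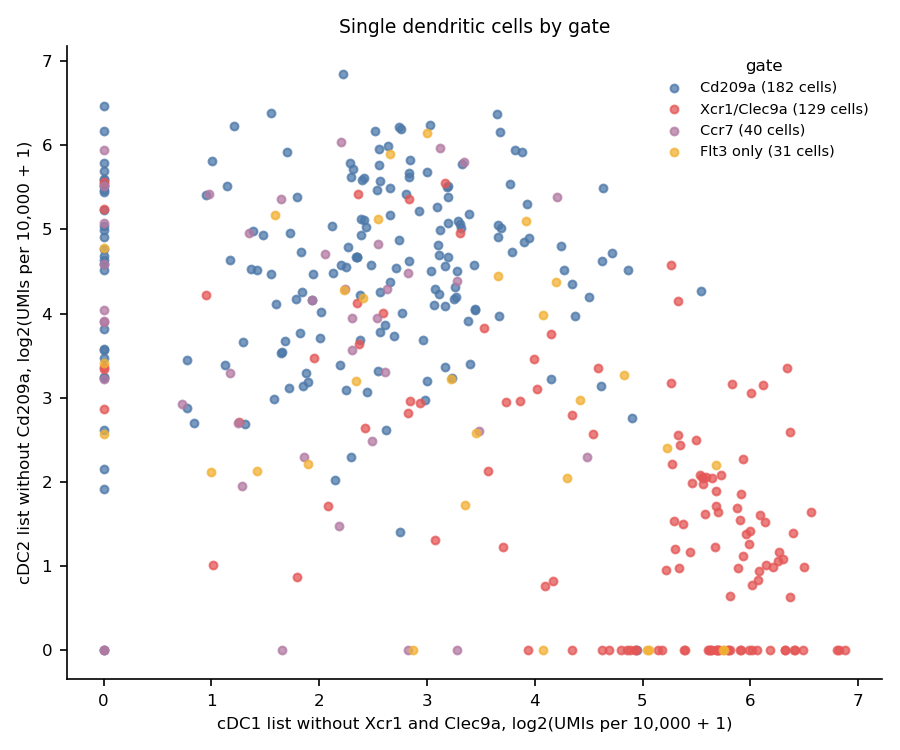
Each point is 1 dendritic cell, with its summed UMIs per 10000 over 12 cDC1 genes (x) and 11 cDC2 genes (y), as log2 of the value plus 1, coloured by gate. The 129 cells of the Xcr1/Clec9a gate lie mostly at the lower right and the 182 of the Cd209a gate at the upper left, with 10 Cd209a cells that had more cDC1 UMIs.

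The cDC1 genes followed the Xcr1/Clec9a gate. All 12 cDC1 genes outside the gate had their highest mean there among the Xcr1/Clec9a, Cd209a and Ccr7 gates, where 41.6% of the 6400 genes did. Irf8, the transcription factor on which cDC1 depend, stood at 1187, 918, 1225 and 1538 CPM there, at 13.7, 37.2, 82.6 and 76.4 CPM in the Cd209a gate and at 240.2, 173, 246 and 246 CPM in macrophage-gate cells. Naaa, an acid amidase of lysosomes, stood at 795, 403, 575 and 894 CPM against 78.7, 39.9, 78.8 and 63.1 CPM. Cadm1, an adhesion molecule that binds CD8 T cells and NK cells through Crtam, stood at 429, 573, 1116 and 818 against 13.7, 53.2, 33.8 and 76.4 CPM. The libraries did not overlap for any of these 3 genes. Tlr3, the endosomal receptor for double-stranded RNA, stood at 143, 78.8, 113 and 135 CPM and had 1 UMI or none in each library of the Cd209a gate. Gcsam stood at 89.3, 15.1, 55.4 and 46.9 CPM and had no UMI in the Cd209a, Ccr7 or macrophage gates, the last of which allows at most 2.87 CPM.

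Some genes, Wdfy4 and Batf3 of this list and Cst3 of the class II list, were graded between the gates. Wdfy4, which dendritic cells need to cross-present material from dead cells, stood at 995 ± 306 CPM in the Xcr1/Clec9a gate, 316 ± 83.3 CPM in the Cd209a gate and 61.0 ± 9.49 CPM in macrophage-gate cells (SD, n = 4 libraries). Batf3, the AP-1 partner of Irf8, stood at 107, 48.5, 91.7 and 93.8 CPM, against 68.4, 21.3, 22.5 and 53.2 CPM in the Cd209a gate and 88.4, 36.9, 73.8 and 115 CPM in the Ccr7 gate, and its libraries overlapped. Cst3 stood at 10463, 8108, 10188 and 13188 CPM against 5219.8, 2319, 2796 and 1924 CPM in the Cd209a gate.

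Among genes of class I loading and cross-presentation, 1 had its highest mean of the 3 gates in the Cd209a gate, where 30.9% of the 6400 genes did. Of 19 genes of class I and cross-presentation, 11 had their highest mean in the Xcr1/Clec9a gate (41.6% of the 6400 genes did) and 7 in the Ccr7 gate (27.5% did). Their summed means were 6604, 5315 and 7047 CPM in the Xcr1/Clec9a, Cd209a and Ccr7 gates. Psmb9, a catalytic subunit of the immunoproteasome, stood at 580.3, 273, 415 and 387 CPM against 144, 58.5, 146 and 86.4 CPM in the Cd209a gate, and Tap1, a subunit of the peptide transporter, at 205, 121, 235 and 173 against 61.6, 55.9, 113 and 79.8 CPM. In both pairs the Xcr1/Clec9a value was the higher within each library. Havcr2, the inhibitory receptor Tim-3, stood at 366, 248, 384 and 319 against 92.4, 90.4, 120.1 and 99.7 CPM, and Cd36, a scavenger receptor, at 241, 151, 195 and 164 against 58.2, 5.32, 7.51 and 16.6 CPM.

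**Figure D3:**
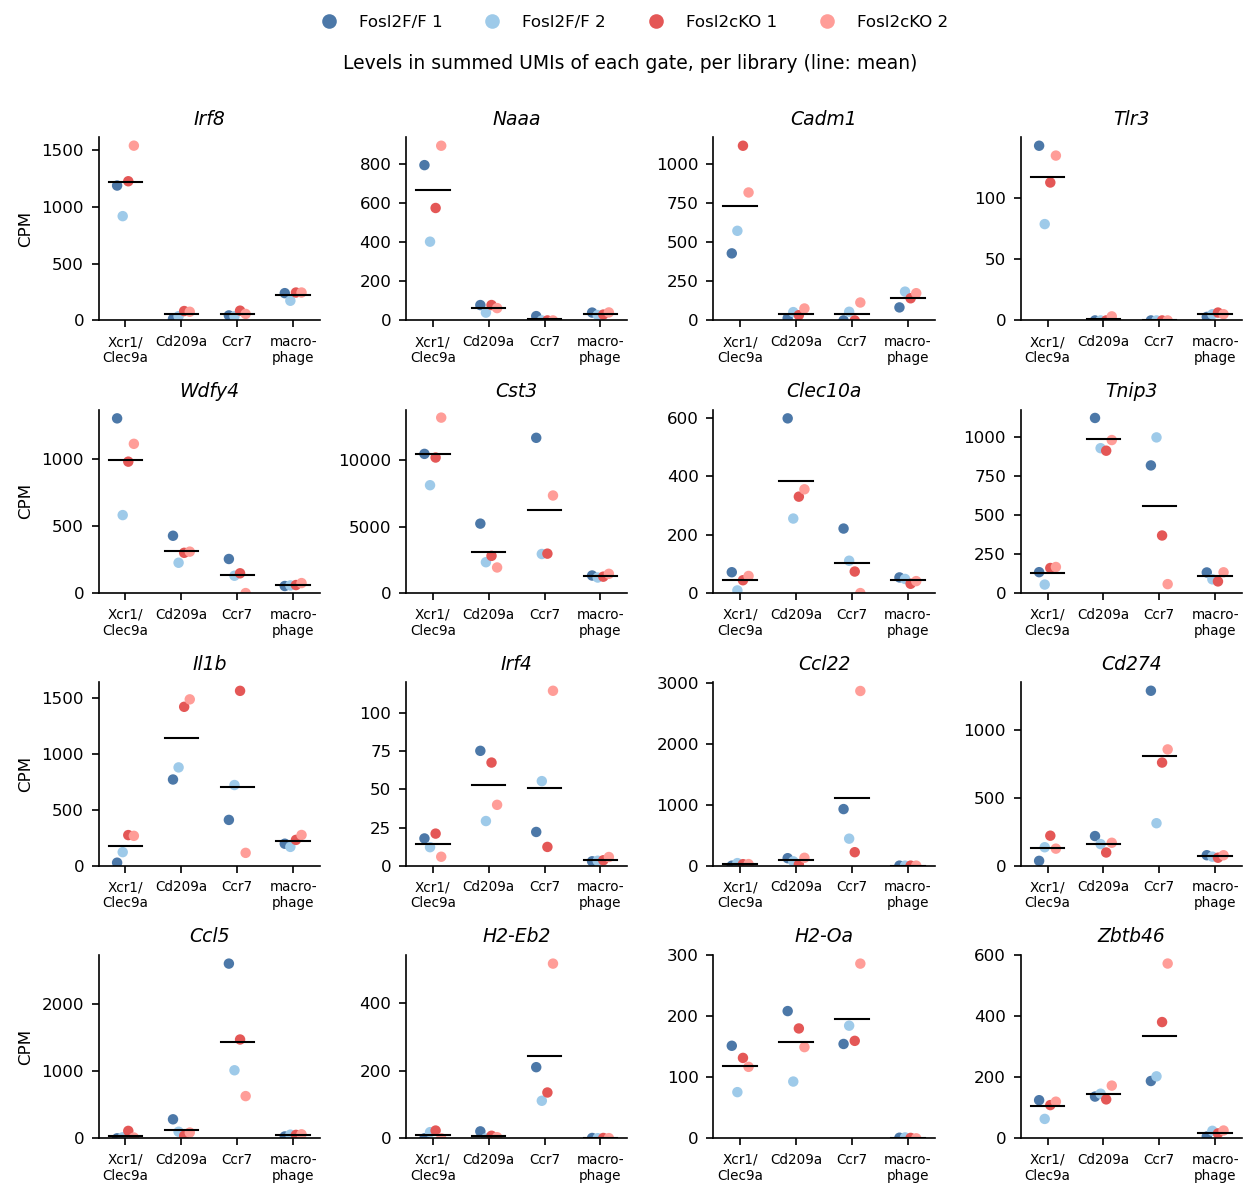
CPM of 16 genes in the summed UMIs of the Xcr1/Clec9a, Cd209a and Ccr7 gates and of macrophage-gate cells, 1 point per library and a line at the mean of 4 libraries. The top row and Wdfy4 are highest in the Xcr1/Clec9a gate (Irf8 mean 1217 CPM), Clec10a and Tnip3 in the Cd209a gate (385 and 986 CPM), and Ccl22, Cd274, Ccl5 and H2-Eb2 in the Ccr7 gate, whose points spread widely and which held 2 to 18 cells per library.

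The Cd209a gate held the highest mean among the 3 gates for most cDC2 and AP-1 genes. Of the 11 cDC2 genes outside the gate, 6 had their highest mean there, where 30.9% of the 6400 genes did. Another 3 had it in the Ccr7 gate and 2 in the Xcr1/Clec9a gate. The summed means of the 11 were 2681 CPM in the Cd209a gate, 1558 CPM in the Ccr7 gate and 550 CPM in the Xcr1/Clec9a gate. Clec10a, a lectin for galactose, stood at 599, 255, 330.3 and 356 CPM, against 71.4, 9.09, 44.0 and 58.6 CPM in the Xcr1/Clec9a gate. Its near copy Mgl2 ranged widely, at 1844, 492, 218 and 405 CPM, with the 1st Fosl2F/F library far above the others, and reads of the pair may be split by the authors' counting. Tnip3, an inhibitor of NF-kB signalling, stood at 1122, 928, 912 and 980.3 against 133.9, 54.5, 161 and 167 CPM. Il1b, interleukin 1 beta, stood at 769.6, 878, 1419 and 1485 CPM against 26.8, 121, 273 and 267 CPM in the Xcr1/Clec9a gate and 196, 168, 230.4 and 274 CPM in macrophage-gate cells.

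Among the transcription factors, Irf4, on which part of the cDC2 depends, stood at 75.3, 29.3, 67.6 and 39.9 CPM against 17.9, 12.1, 21.0 and 5.86 CPM in the Xcr1/Clec9a gate. Zeb2, which represses the cDC1 fate, stood at 790.2, 801, 1212 and 701 CPM against 214, 278.7, 151 and 214 CPM, and at 1249 CPM in macrophage-gate cells. Both were higher in the Cd209a gate within every library. Sirpa, the receptor for CD47 by which cDC2 are often sorted, stood at 195, 90.4, 139 and 163 CPM, above the 35.7, 12.1, 11.5 and 26.4 CPM of the Xcr1/Clec9a gate but below the 380.0, 236, 357 and 426 CPM of macrophage-gate cells. Of 17 AP-1 and immediate early genes, 14 had their highest mean in the Cd209a gate, though the list summed to 9461 CPM there and to 10050.3 CPM in all other filtered cells. Fosl2 was among them (188, 332, 304 and 289 CPM, against 80.3, 136, 179.6 and 99.6 CPM in the Xcr1/Clec9a gate), as was Batf (71.8, 119.7, 120.1 and 123 against 8.93, 12.1, 24.8 and 38.1 CPM).

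The Ccr7 gate showed the genes of matured cells. It was the smallest of the 3, with 10, 18, 10 and 2 cells and 90482, 54142, 81337 and 17452 UMIs, so 3 UMIs amount to 33.2, 55.4, 36.9 and 171.9 CPM. Of 18 mature genes outside the gate, 17 had their highest mean there, where 27.5% of the 6400 genes did. Ccl22, a chemokine for cells with Ccr4, stood at 928, 443, 221 and 2865 CPM, against 123, 71.8, 18.8 and 129.6 CPM in the Cd209a gate. Ccl5, an inflammatory chemokine, stood at 2608, 1016, 1475 and 630.3 against 284, 98.4, 37.5 and 86.4 CPM. Ccl17, the other ligand of Ccr4, was less even, at 2995, 554, 0 and 2006 CPM, with no UMI in the 1st library labelled Fosl2cKO.

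Genes of T cell contact and of NF-kB stood with these chemokines. Of 13 genes of costimulation and checkpoint ligands, 11 had their highest mean in the Ccr7 gate, and 11 of 12 genes of the NF-kB pathway did. Cd274, the ligand PD-L1, stood at 1293, 314, 762 and 859.5 CPM against 219, 159.6, 97.6 and 169 CPM in the Cd209a gate. Cd80, a ligand of CD28, stood at 409, 129, 455 and 802 against 133, 173, 330.3 and 193 CPM, and the 2nd Fosl2F/F library was lower in the Ccr7 gate. Cd83, which keeps class II at the surface, stood at 3006, 2013, 2115 and 3209 against 1772, 1239, 1501 and 1402 CPM. Relb, an NF-kB subunit of dendritic cell maturation, stood at 376, 259, 418 and 286 against 144, 146, 116 and 203 CPM.

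The class II genes were not all highest in the same gate. H2-Eb2 stood at 210.0, 111, 135 and 516 CPM there and at 20.5, 0, 7.51 and 3.32 CPM in the Cd209a gate, and all 4 libraries were higher in the Ccr7 gate. H2-DMb1 went the other way, at 188, 111, 111 and 115 against 677, 356, 717 and 439 CPM, as did H2-DMa, at 321, 203, 184 and 401 against 677, 364, 589 and 462 CPM. H2-Aa did not separate the gates (8070.3 ± 3094, 9235 ± 3239.9 and 10416 ± 5255 CPM in the Xcr1/Clec9a, Cd209a and Ccr7 gates, SD over 4 libraries). Il12b stood at 663, 296, 664 and 0 CPM in the Ccr7 gate and at 8.93, 227, 42.0 and 38.1 CPM in the Xcr1/Clec9a gate, where the 2nd Fosl2F/F library was the highest.

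The 31 cells with Flt3 alone held part of the plasmacytoid genes. Tcf4 stood at 1213, 896, 452 and 1019 CPM, against 260.0, 529, 574 and 292 CPM in the Cd209a gate, higher in 3 of 4 libraries. Siglech stood at 211, 97.4, 0 and 235 CPM, and Ly6d at 193, 19.5, 0 and 313 CPM. The 1st library labelled Fosl2cKO had no UMI of either among its 5 cells, and Siglech was also found in the Cd209a gate (3.42, 15.96, 52.6 and 3.32 CPM) and the Xcr1/Clec9a gate (0, 39.4, 28.7 and 46.9 CPM). With 5, 15, 5 and 6 cells per library, 3 UMIs amount to 52.8 to 96.8 CPM in this group. In Fosl2F/F 1, 1 cell held 29982 of its 56866 UMIs, and that cell lay in cluster 4 of the clustering below. The plasmacytoid list had a mean sum of 1988 CPM in this group, 805 CPM in all dendritic cells and 970 CPM in all other filtered cells.

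Clustering of the 382 cells by themselves gave 6 clusters. Cluster 2 (87 cells) had 7 cDC1 genes among its 10 leading genes and is called cDC1-like, and 80 of its cells were of the Xcr1/Clec9a gate. Cluster 1 (98 cells) had 4 cDC2 genes among its first 10 and is called cDC2-like, with Il1b, Ptgs2 and Nlrp3, genes of inflammation, also among them. Cluster 5 (33 cells) is called mature-like, with Ccl17, Ccl22, Ccr7, Il12b, Il4i1 and Fscn1 among its first 10, and 20 of its cells were of the Ccr7 gate. The other 20 of the 40 Ccr7-gate cells lay in cluster 1 (11 cells), cluster 4 (8 cells) and cluster 3 (1 cell), so the values of that gate mix these clusters. Cluster 6 (11 cells) had Siglech, Ly6d, Ccr9, Cox6a2 and Klk1 among its first 10 and is called plasmacytoid-like, though 4 of its cells were of the Xcr1/Clec9a gate and 3 of the Cd209a gate.

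The other 2 clusters stay unnamed. Cluster 3 (77 cells, 51 of them of the Cd209a gate) was led by Ifitm1, Ifitm6, Ifih1, Klrd1 and Ccl6, and no cDC1, cDC2, mature or plasmacytoid gene was among its first 10. Cluster 4 (76 cells) was led by Magi1, Col3a1 and Col1a2, collagens of stromal cells among them. In cluster 4, 75% of cells had a high doublet score and 58 came from the 2nd Fosl2F/F library. Its stromal list summed to 2255 CPM, against 36.2 to 79.4 CPM in the other 5, and its theca or luteal list to 2421 CPM, against 179.7 to 289.5 CPM. The part of doublets in it was not tested.

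Chemokines and cytokines were not, as a group, higher than in macrophages. Of 29 genes, 6 were above macrophage-gate cells in all 4 libraries and 14 below, where 25.6% and 18.5% of the 6400 genes were. Those 6400 genes had a mean of at least 20 CPM in dendritic cells, a floor that list genes did not have, so the shares are not strictly alike. Pattern recognition receptors were mostly lower, with 2 of 17 genes outside the gate above in all 4 and 11 below. Tlr3 was among the higher (29.0, 34.5, 65.4 and 67.3 against 2.87, 5.05, 6.44 and 5.12 CPM), and Tlr7, the receptor for single-stranded RNA, among the lower (0, 9.86, 6.65 and 4.30 against 34.5, 37.9, 36.0 and 47.8 CPM). Of 15 nuclear hormone receptors, Nr3c1, the glucocorticoid receptor, stood at 72.5, 112, 115 and 106 CPM. Pgr, the progesterone receptor, stood at 1.81, 0, 2.22 and 0 CPM, under the value of 3 UMIs in each library.

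The comparison of the conditions asks whether the dendritic cells of an ovary differ when Fosl2 is targeted in its GCs. As a share of filtered cells, dendritic cells made up 0.672%, 0.699%, 1.20% and 0.893%. Their means, 0.685% ± 0.0191 and 1.05% ± 0.216 (SD, 2 libraries per condition), gave a ratio of 1.53. The libraries did not overlap, and the exact two-sided permutation test gave p = 0.333, the smallest that 2 libraries against 2 allow, so no share could pass p = 0.05 here. As a share of leukocyte-gate cells (at least 1 UMI of Ptprc, which encodes CD45, and the same limit on Inhba and Amh), they made up 10.9%, 9.72%, 9.11% and 10.4%, and the libraries overlapped (exact permutation p = 0.667). These were the 50, 135, 77 and 64 dendritic cells with a Ptprc UMI. The difference of -0.555 points changed sign without Fosl2F/F 1 (0.0318) or without Fosl2cKO 1 (0.0834). With every cell thinned to 2000 UMIs the leukocyte share stood at 9.47%, 10.6%, 6.09% and 8.12%, without overlap and with a mean difference of -2.91 points (exact permutation p = 0.333), and over 2000 UMIs the difference was -1.57 points, also without overlap. GC-gate cells numbered 3321 of 8780 filtered cells, 3044 of 24320, 797 of 7175 and 935 of 7507. Their share was thus much larger in Fosl2F/F 1 than in the other libraries, and the part of GC-gate cells in the dendritic share was not tested.

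Cells of the cDC1 gate made up more of the dendritic cells in both libraries labelled Fosl2cKO. Xcr1/Clec9a-gate cells made up 16.9% (95% Wilson interval 9.48 to 28.5) of dendritic cells in Fosl2F/F 1 and 29.4% (23.1 to 36.7) in Fosl2F/F 2. In the libraries labelled Fosl2cKO they made up 47.7% (37.4 to 58.1) and 41.8% (30.7 to 53.7). The means differed by 21.6 percentage points, from 23.2% ± 8.81 to 44.7% ± 4.16 (SD, 2 libraries per condition, exact permutation p = 0.333, again the smallest possible). Cd209a-gate cells made up 57.6%, 51.2%, 34.9% and 46.3%, a mean difference of -13.8 points (exact permutation p = 0.333), which was -8.13 points without Fosl2cKO 1 and -19.5 without Fosl2cKO 2. Ccr7-gate cells made up 16.9%, 10.6%, 11.6% and 2.99%, and the libraries overlapped (exact permutation p = 0.667). Their mean difference of -6.46 points was -2.14 without Fosl2cKO 2, -3.28 without Fosl2F/F 1 and -10.8 without Fosl2cKO 1. These intervals cover counting error alone.

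A gate of 1 UMI depends on depth, and the 2nd Fosl2F/F library was shallow. With every cell thinned to 2000 UMIs and shallower cells left out, the Xcr1/Clec9a gate held 12.8% (6 of 47 cells), 32.0% (31 of 97), 43.9% (25 of 57) and 40.4% (19 of 47). Without cells of high doublet score it held 16.4%, 27.7%, 49.4% and 40.6%. The order of the conditions was the same each time. Per filtered cell, Xcr1/Clec9a-gate cells stood at 0.114%, 0.206%, 0.571% and 0.373%, a ratio of 2.96 between the means. Cd209a-gate cells stood at 0.387%, 0.358%, 0.418% and 0.413%, a ratio of 1.12, which turned to 0.896 when cells were thinned to 2000 UMIs, where that of the Xcr1/Clec9a gate was 2.73. The ratio was thus wider for the Xcr1/Clec9a gate than for the Cd209a gate, a difference that was not tested. These counts per filtered cell were added after the data had been seen.

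**Figure D4:**
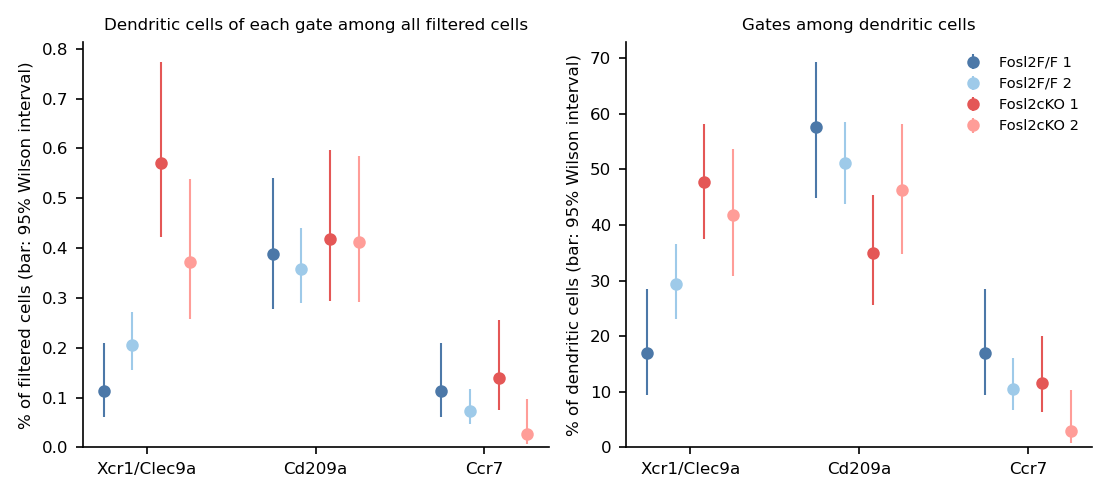
Share of filtered cells (left) and of dendritic cells (right) in the Xcr1/Clec9a, Cd209a and Ccr7 gates, in percent, with 1 point per library and bars for the 95% Wilson interval, which covers counting error alone. Both libraries labelled Fosl2cKO lie above both Fosl2F/F libraries in the Xcr1/Clec9a gate (47.7% and 41.8% against 16.9% and 29.4% of dendritic cells).

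Gene by gene, the main test over summed UMIs called nothing. In dendritic cells 0 of 7950 genes (0%) passed an adjusted p under 0.1 with a log2 fold change over 0.25 in size (edgeR, quasi-likelihood, Benjamini-Hochberg), 444 had an unadjusted p under 0.05, and DESeq2 called 12. The count was 610 without Fosl2F/F 1, 90 without Fosl2F/F 2, 51 without Fosl2cKO 1 and 56 without Fosl2cKO 2, where the lone library left in a condition is assumed to vary like the others. With all 4 libraries, edgeR called 219 genes without the gene filter and 8 with the replicate number as a block. Both libraries labelled Fosl2cKO lay above both Fosl2F/F libraries for 17.0% of genes and below for 15.7%. In such sums, fewer cells of a type and less RNA per cell cannot be told apart.

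The cDC1 list stood higher in the libraries labelled Fosl2cKO, in the same cells whose gate shares are given above. Of its 12 genes outside the gate 11 were tested, and all 11 had a positive log2 fold change, 10 without overlap between the conditions (17.0% of all genes), with a median of 1.06 against -0.03 over all genes tested. Of these, 6 had an unadjusted p under 0.05, where 444 of all 7950 genes did. None of the 11 passed the threshold, with adjusted p of 0.796 or more. Without high doublet scores 2 had an unadjusted p under 0.05, where 356 of 6649 genes did. With the gating genes included, and so as a description, the median of the 13 tested genes ranged from 1.02 to 1.14 when 1 library was left out. Without Fosl2F/F 2, 12 of the 13 were positive. Irf8 stood at 363, 402, 770.2 and 827 CPM scaled by TMM, a log2 fold change of 1.06 with a standard error of 0.28. Cadm1 stood at 111, 266, 679 and 446 CPM, a log2 fold change of 1.56 with a standard error of 0.45. As a description of the gating genes, Clec9a, the receptor for actin of dead cells, stood at 59.5, 100.5, 206 and 158 CPM, and Xcr1, the receptor for Xcl1, at 47.2, 57.9, 132 and 130.4 CPM. The exception to the separation among the 11 was Batf3, at 88.2, 31.9, 69.8 and 74.7 CPM. Irf8 passed the threshold when Fosl2F/F 1 (log2 fold change 1.02) or Fosl2F/F 2 (1.14) was left out, and so did Cadm1 (1.11 and 2.35).

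**Figure D5:**
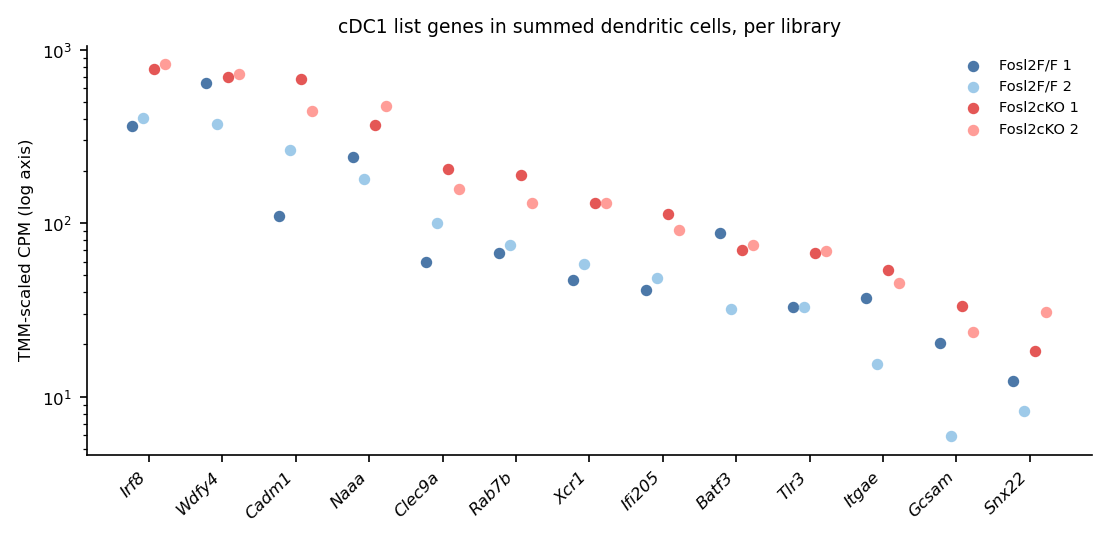
CPM scaled by TMM (log axis) of 13 cDC1 genes in the summed dendritic cells of each library, with the gating genes Xcr1 and Clec9a shown as a description. For 10 of the other 11 genes both libraries labelled Fosl2cKO lie above both Fosl2F/F libraries, as for Irf8 (363, 402, 770.2 and 827 CPM), and for Batf3 they do not.

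Within the Xcr1/Clec9a gate alone the median difference was smaller. All 11 genes outside the gate again had a positive log2 fold change, but 4 did not overlap (18.1% of the 5303 genes tested in this gate) and the median was 0.41, against 0.00 over all genes. Irf8 stood at 1334, 956, 1342 and 1689 CPM there (log2 fold change 0.41 with a standard error of 0.29). The cells of this gate were not spread alike over the clusters. Cluster 4, rich in high doublet scores and stromal genes, held 1 of 10, 18 of 50, 3 of 41 and 2 of 28 of them by library, and the cDC1-like cluster 2 held 6, 26, 29 and 19. In the sums each cell counts by its UMIs, and 1 cluster 4 cell held 52704 of the 330057 UMIs of this gate in Fosl2F/F 2. The part of this in the comparison was not tested. Cadm1 kept most of its difference, at 482, 596, 1223 and 898 CPM (log2 fold change 0.97 with a standard error of 0.30, adjusted p = 0.477). No gene passed the threshold in this gate (0 of 5303, 0%, 417 with an unadjusted p under 0.05), but 638 did without Fosl2F/F 1 and 47 without Fosl2F/F 2. In the Cd209a gate 0 of 4946 passed (0%, 125 with p under 0.05), and 105 did without Fosl2F/F 1, 4 without Fosl2F/F 2 and 26 without Fosl2cKO 2. Without cells of high doublet score the median of these genes over all dendritic cells was 0.72, with 10 of 11 positive. That setting left part of cluster 4 in place. The cell of 52704 UMIs had no high score and stayed, as did a cluster 4 cell of 50974 UMIs in Fosl2cKO 2.

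The direction of the cDC2 and mature lists turned when the 1st Fosl2F/F library was left out. Of 10 cDC2 genes outside the gate, 4 had a positive and 6 a negative log2 fold change, with a median of -0.29, and 1 was lower without overlap (15.7% of all genes). The median was 0.45, with 7 of 10 higher, without Fosl2F/F 1, and -0.79 without Fosl2F/F 2. Mgl2 stood at 1364, 258, 90.4 and 191 CPM, a log2 fold change of -2.53 with a standard error of 0.73, with an adjusted p of 0.796. Cd209a stood at 441, 277, 209 and 262 CPM, and Sirpa at 182, 54.4, 89.3 and 103 CPM. Within the Cd209a gate, Mgl2 stood at 2243, 528, 227 and 440.1 CPM. Of 14 mature genes outside the gate, 4 were higher and 10 lower, 3 without overlap (15.7% of all genes were lower without overlap). Their median was -0.18, which became 0.34, with 12 of 15 higher, without Fosl2F/F 1, and -0.39 without Fosl2F/F 2. Socs2, an inhibitor of cytokine signalling, stood at 133, 209, 45.8 and 61.5 CPM (log2 fold change -1.69 with a standard error of 0.37, adjusted p = 0.796). Ccl17 stood at 1142, 86.3, 16.02 and 233 CPM, and its log2 fold change of -2.31 became 0.52 without Fosl2F/F 1 and -5.22, past the threshold, without Fosl2cKO 2. Mgl2 passed without Fosl2F/F 2 (-3.28) or Fosl2cKO 2 (-3.14), and Socs2 without Fosl2F/F 1 (-1.94).

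The class II genes overlapped between the conditions. Of 11 genes outside the gate, 5 were higher and 6 lower, none without overlap, and the median was -0.01. It was 0.81, with all 11 higher, without Fosl2F/F 1, -0.52, with 10 lower, without Fosl2F/F 2, and -0.27 without high doublet scores. Of the gating genes, H2-Aa stood at 14134, 4713, 7878 and 10128 CPM and Cd74 at 24228, 9609.6, 13439.8 and 15294 CPM, and for both the 2 Fosl2F/F libraries were the highest and the lowest. Of the 19 class I and cross-presentation genes, 17 were higher, 5 without overlap (17.0% of all genes), with a median of 0.32. Without Fosl2F/F 2 the count was 8 of 19 (median -0.08), without Fosl2cKO 1 the median was 0.06, without Fosl2F/F 1 it was 0.95, and without high doublet scores 13 of 19 were higher (0.14). Tap1 stood at 129, 88.7, 191 and 132 CPM (log2 fold change 0.58 with a standard error of 0.36).

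Among the chemokines and cytokines, 9 of 21 tested genes were higher and 12 lower, with 6 higher without overlap (17.0% of all genes) and a median of -0.01. Without Fosl2F/F 1, 21 of 23 were higher (median 0.58), and without Fosl2F/F 2, 9 of 23 were (-0.40). Cxcl2, a ligand of Cxcr2 on neutrophils, stood at 133, 169, 269 and 341 CPM (log2 fold change 1.01 with a standard error of 0.32), and Cxcl9, a ligand of Cxcr3 on T cells, at 22.6, 36.6, 53.8 and 186 CPM. Il1b stood at 545, 494, 774 and 802 CPM, and its libraries did not overlap within the Xcr1/Clec9a gate (30.1, 126, 299 and 293 CPM) or the Cd209a gate (936, 943, 1478 and 1613 CPM) either. In the Cd209a gate, cluster 4 held 3 of 34, 30 of 87, 2 of 30 and 4 of 31 cells by library, and the part of this was not tested. None of these passed the threshold, with adjusted p between 0.796 and 0.888 over all dendritic cells. Of 15 cycling genes tested, 11 were higher, 8 without overlap (17.0% of all genes). Their median was 0.66 and ranged from 0.36 to 0.88 with 1 library left out, and Mki67 stood at 41.0, 43.7, 113 and 60.1 CPM. In macrophage-gate cells all 17 genes of the list were lower, with a median of -0.52. Of these 17, 11 had their highest mean in the Xcr1/Clec9a gate, where 41.6% of the 6400 genes did. Of 8 plasmacytoid genes tested, 6 were higher, 4 without overlap (17.0% of all genes), and 1 was lower without overlap (15.7%). Their median was 0.64, or 0.26 (4 of 6 higher) without high doublet scores and 0.31 without Fosl2cKO 2. Of 13 interferon response genes 9 were lower, 4 without overlap (15.7% of all genes), with a median of -0.31, which turned to 0.15 without Fosl2F/F 1. The AP-1 genes had 10 higher and 5 lower of 15, with a median of 0.09, which ranged from -0.11 without Fosl2cKO 2 to 0.28 without Fosl2F/F 2. Fos stood at 1171, 1811, 1564 and 1682 CPM and Junb at 1688, 1292, 1481 and 1737 CPM.

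The genes with the smallest p were named by rule, none of them past the threshold. Plb1, which encodes a phospholipase B, had 0, 1, 62 and 119 UMIs in the dendritic cells (adjusted p = 0.184). With at most 1 UMI in the Fosl2F/F libraries no fold is given. Scand1, which encodes a nuclear protein with a SCAN domain, stood at 24.6, 31.9, 182 and 212 CPM (log2 fold change 2.77 with a standard error of 0.36, adjusted p = 0.184), and Eif3f, a subunit of a translation initiation factor, at 105, 152, 368 and 517 CPM (1.77 with a standard error of 0.35). In macrophage-gate cells Scand1 stood at 25.8, 37.8, 136 and 168 CPM and Eif3f at 117, 117, 301 and 384 CPM, and the test of the difference between the cell types gave adjusted p of 0.849 and 0.933. Cebpd, a transcription factor of inflammation, and Ppm1m, a phosphatase, had log2 fold changes of 2.27 with a standard error of 0.41 and 2.32 with a standard error of 0.46.

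On the other side, Nupr1, a stress-response gene, had the smallest p (90.2, 182, 5.72 and 13.2 CPM, log2 fold change -3.88 with a standard error of 0.55, adjusted p = 0.206). Morrbid, a long non-coding RNA that regulates the survival of short-lived myeloid cells, stood at 133, 75.7, 19.5 and 27.8 CPM in dendritic cells (log2 fold change -2.13 with a standard error of 0.44) and at 70.7, 53.8, 61.3 and 115 CPM in macrophage-gate cells. The difference between those cell types had an adjusted p of 0.156. Magi2 and Dlgap1, which encode scaffold proteins of cell junctions and synapses, had log2 fold changes of -2.72 with a standard error of 0.44 and -3.01 with a standard error of 0.60. Rtl4 had 16, 54, 0 and 0 UMIs. Plb1, Scand1 and Nupr1 passed the threshold whichever library was left out, Cebpd and Magi2 unless it was Fosl2cKO 1, and Rtl4 unless it was Fosl2F/F 2. Ppm1m and Dlgap1 passed without Fosl2F/F 1 or Fosl2cKO 1, and Eif3f and Morrbid when either Fosl2F/F library was left out.

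Genes of other ovarian cells also stood apart between the conditions in the dendritic sums. None passed the threshold in edgeR without a block, with all 4 libraries and the gene filter, while 1 theca or luteal gene did with the replicate number as a block (adjusted p = 0.0124) and 1 in DESeq2 (adjusted p = 0.0143). Without Fosl2F/F 1, the median log2 fold change was -1.28 over 10 granulosa genes tested, gating genes included, and -2.93 over 7 theca or luteal genes. Without Fosl2cKO 2 these medians were -1.63 and -3.71. Of the granulosa list outside the gate, 7 genes were tested and all 7 were lower in the libraries labelled Fosl2cKO, 6 without overlap (15.7% of all genes), with a median log2 fold change of -1.33, or -0.69 without Fosl2F/F 2, and the list summed to 658, 1189, 347 and 453 CPM. The theca or luteal list had all 5 tested genes lower, with a median of -1.94, and summed to 230.2, 2212, 165 and 522 CPM. Without Fosl2F/F 2, 4 of the 5 were higher, with a median of 0.27, and without Fosl2cKO 1, 2 of 7 were, with a median of -1.49. The stromal list summed to 323, 1173, 662 and 370 CPM, with all 6 tested genes lower and a median of -0.49, which became 1.08 (6 of 6 higher) without Fosl2F/F 2 and 0.55 (3 of 4 higher) without high doublet scores. Each of these sums was highest in the 2nd Fosl2F/F library, which also held most of the cells of high doublet score. Inha, the inhibin subunit of GCs, stood at 308, 378, 105 and 167 CPM in dendritic cells and at 375, 409, 248 and 195 CPM in macrophage-gate cells. The part of this RNA in the differences above was not tested.

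Beside them, macrophage-gate cells had 3 of 10964 genes past the threshold (0.0274%), Hba-a1, Hbb-bs and Hba-a2, all lower and all hemoglobin genes of red blood cells, and 0 once cells with 0.1% or more hemoglobin UMIs were left out. The cDC1 genes that could be tested there, 7 of 14, had a median log2 fold change of 0.26. The test of whether the condition effect differed between dendritic and macrophage-gate cells called 2 of 9813 genes (0.0204%), Robo2 and Rtl4, and for Irf8 it gave 0.81 on the log2 scale with an adjusted p of 0.815. Left-out libraries gave 16 (Fosl2F/F 1), 8 (Fosl2F/F 2), 5 (Fosl2cKO 1) and 204 (Fosl2cKO 2) genes for that difference, and 2, 387, 24 and 15 in macrophage-gate cells.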

How the data were processed

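The authors aligned reads of 4 ovarian libraries to GRCm38 with CellRanger. The deposited matrices, per the file headers from cellranger 7.1.0, hold whole-number UMI counts per gene (32285 genes) and barcode, without normalization. The methods name an earlier version of CellRanger and describe CellBender. Whether its correction is in the counts is not stated.

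UMIs of the gated cells were summed per library and given as CPM (levels between gates or genes) or as CPM scaled by TMM (between conditions). Conditions were compared with edgeR 4.0.16 (filterByExpr, TMM, quasi-likelihood test, Benjamini-Hochberg), the threshold being an adjusted p below 0.1 with a log2 fold change beyond 0.25 either way. DESeq2 1.42.0 was an alternative. The difference between cell types was an interaction term with the library as a block. Shares were compared with exact two-sided permutation tests. Doublet scores came from Scrublet in scanpy 1.11.5, high meaning the top 0.8% of scores for each 1000 cells of a library. No cell was removed by it in the values given first. Clusters used 2000 variable genes, 20 components and Leiden at a resolution of 0.5, set after seeing the data. Genes named were those of the gate and the fixed lists, the 25 highest ratios over 50 CPM, and 5 each way by smallest p with a mean of at least 20 CPM. Lists, gate and members were chosen with earlier results of these data known. Robo2, the hemoglobin genes and the cluster genes outside the lists were named after their values were seen.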

Additional observations from a re-analysis of the deposited data

Results flagged for a closer look

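The effect of the condition differed between dendritic and macrophage-gate cells for Robo2 and Rtl4. Robo2, a receptor of axon guidance, stood at 36.9, 260.1, 16.02 and 11.7 CPM in dendritic cells and at 7.85, 91.0, 115 and 56.2 CPM in macrophage-gate cells. The difference between the 2 log2 fold changes was -4.26 (adjusted p = 0.0459 in edgeR). Rtl4, a gene derived from a retrotransposon, had 16, 54, 0 and 0 UMIs in dendritic cells and stood at 13.5, 21.1, 31.4 and 19.1 CPM in macrophage-gate cells. Its fitted difference of -9.73 (adjusted p = 0.0650) rests on 2 libraries with no UMI, depends on the prior count and is no bound. Without cells of high doublet score, the fitted differences were -2.23 and -7.57 and neither passed (adjusted p = 0.998 for both). Over the other alternatives the adjusted p of Robo2 lay between 1.69e-14 and 0.0931. DESeq2 gave no adjusted p for Rtl4, which was not called there, and over the rest its adjusted p lay between 4.44e-12 and 0.174, above the threshold with at least 20 class II UMIs per cell (0.103) and without Fosl2F/F 2 (0.174).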

How the results depend on the processing

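Of the alternatives, those that kept the gene filter and all 4 libraries without a block gave 0 genes in dendritic cells, except DESeq2, with 12 (5 higher, 7 lower). Without the gene filter there were 219, 88 in macrophage-gate cells and 143 for the difference between cell types. Leaving out 1 library gave 51 to 610 in dendritic cells, where the lone library of a condition is assumed to vary like the others, with most (610) without the 1st Fosl2F/F library. The same gave 2 to 387 in macrophage-gate cells, 5 to 204 for the difference, 0 to 638 in the Xcr1/Clec9a gate and 0 to 105 in the Cd209a gate. DESeq2 called 26 genes in macrophage-gate cells and 9 for the difference. Leaving out cells with hemoglobin or with a high doublet score gave 0 in macrophage-gate cells. The difference kept 1 gene at an adjusted p under 0.05, 1 with at least 20 class II UMIs per cell and 0 without high doublet scores. The causes were not tested.

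The replicate number as a block called 8 genes in dendritic cells (2 higher, 6 lower) and 39 in macrophage-gate cells (24 higher, 15 lower). Deviations of same-numbered libraries correlated at -0.0282 in dendritic cells and at -0.0908 in macrophage-gate cells. The shallow library Fosl2F/F 2 enters both values, so they cannot decide whether same-numbered libraries share more than a number. That was not tested.

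The share of leukocyte-gate cells differed by -0.555 points and by -1.19 to 0.0834 when 1 library was left out, changing sign without Fosl2F/F 1 (0.0318) or Fosl2cKO 1 (0.0834). Thinned to 2000 UMIs it was -2.91 points (ratio 0.710) and over 2000 UMIs -1.57 points, both without overlap. Per filtered cell, thinning turned the Cd209a gate to -0.0297 and the Ccr7 gate to 0.0170 points, and the latter ranged from -0.0673 to 0.0454 without 1 library. The log2 fold change of Batf3 turned to -0.00331 without high doublet scores and ranged from -0.28 to 1.20 when 1 library was left out, that of Ccl17 from -5.22 to 0.52 and that of Ccl22 from -1.93 to 0.27. The Xcr1/Clec9a share kept its direction in every alternative run.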
